A study of Homo sapiens with 4 samples.

Results

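ATF4, CHOP (gene DDIT3) and 8 genes that act beside or below them were followed across 4 microarrays of Nalm-6, a line of human pre-B leukemia cells. The 10 genes were ATF4, ATF3, DDIT3, TRIB3, CEBPB, CEBPG, PPP1R15A, DDIT4, SESN2 and VLDLR. Every probe whose RefSeq accession mapped to one of these genes was taken, which gave 14 probes of the 41000 on the array and 10 genes of the 18203 that could be named. All 14 probes were well above background on all 4 arrays, so no member was lost to a filter on dim signal.

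The study asked how Arp5 and Arp8, actin-related subunits of the INO80 chromatin remodeling complex, act on transcription under oxidative stress. There were 4 groups with 1 array each, labelled by genotype as wild type (WT), Arp5 KO, Arp8 KO and Arp8 overexpression, all in Nalm-6. Arp5 KO was 1 established line with both ARP5 alleles disrupted by gene targeting, and Arp8 KO came from earlier work of the same group. The paper reports that Arp5 KO cells grew slightly slower than WT. It also states that conditional knockout of Arp8 had been lethal to cells in that earlier work. The treatment given by the protocol was heme, which induces oxidative stress, at 20 uM for 12 hour. For WT and the culture labelled Arp8 overexpression every label gave heme. For the knockouts the labels conflicted, since one characteristic gave no heme for either of them, the source name gave none for Arp5 KO alone, and the sample titles gave heme for both. Genotype and heme treatment therefore cannot be told apart in any difference between a knockout and WT or between a knockout and the culture labelled Arp8 overexpression. By the source name the knockouts also differed from each other in heme, so the same holds for a difference between them.

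The labels were checked on the targeted genes. The ACTR5 probe, which measures the Arp5 transcript, was far lower in Arp5 KO than in WT (log2 difference -4.27). For ACTR8 both probes were lower in Arp8 KO (log2 differences -0.53 and -0.68), whereas on the array labelled Arp8 overexpression they differed from WT by only 0.02 and -0.01. The Arp8 KO values lay between the 5th and 95th percentiles of all probes tested there (-0.94 and 0.85). A loss of the Arp8 transcript was therefore not clear at these probes. The overexpression was thus not seen at these probes, and no direction below is read as an effect of more Arp8. HMOX1, the heme oxygenase that heme normally induces, was also lower than in WT, with log2 differences of -2.05 on the array labelled Arp8 overexpression, -2.98 in Arp5 KO and -2.91 in Arp8 KO. All 9 markers of B-cell precursors used (among them PAX5, EBF1 and VPREB1) were well above background on every array, with a summed scaled signal between 279.8 and 355.8. Of 7 markers of other blood cells used, CD14 was above background on all arrays, and CD3E and LYZ in Arp8 KO alone. The summed signal of the 7 lay between 0.209 and 0.265.

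ATF4 is the main transcription factor of the integrated stress response. Stress kinases, including the heme-regulated kinase EIF2AK1, phosphorylate the translation factor eIF2, which lowers protein synthesis in general but favours translation of the ATF4 mRNA. ATF4 then works as a dimer with other bZIP proteins, such as CEBPB and CEBPG, on genes of amino acid supply and stress, CHOP among them, and the phosphatase subunit GADD34 (gene PPP1R15A) closes the loop by reversing the phosphorylation of eIF2.

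Promoter sequence is shown for 5 genes as examples, 1 or more for each motif searched, since several of the genes described here are known targets of bZIP factors. Windows of 300 bases around RefSeq start sites (GRCh38.p14) were searched on both strands for TGATGNAA (the C/EBP-ATF composite element), TGACGTCA (the cAMP response element), TGACTCA (the AP-1 element) and ACGTG (the core of the hypoxia response element). Read on both strands, ACGTG overlaps itself in CACGTG, as it did for ATF4. Capitals mark the motif in each stretch.

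DDIT3, chr12:57520648-57520767, minus strand: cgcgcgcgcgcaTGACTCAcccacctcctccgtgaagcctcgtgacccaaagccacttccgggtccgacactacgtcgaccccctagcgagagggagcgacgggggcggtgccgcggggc
CEBPG, chr19:33374013-33374112, plus strand: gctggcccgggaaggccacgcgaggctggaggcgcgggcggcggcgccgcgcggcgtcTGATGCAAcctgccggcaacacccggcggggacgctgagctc
PPP1R15A, chr19:48872321-48872420, plus strand: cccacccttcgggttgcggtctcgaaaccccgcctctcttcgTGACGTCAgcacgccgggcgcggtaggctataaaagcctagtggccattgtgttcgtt
DDIT4, chr10:72273774-72273923, plus strand: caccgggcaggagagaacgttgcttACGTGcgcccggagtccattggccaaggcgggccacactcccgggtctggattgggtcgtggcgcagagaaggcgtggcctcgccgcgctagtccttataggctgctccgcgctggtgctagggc
CHAC1, a CHOP and ATF4 target described with the pattern of DDIT3, chr15:40953251-40953350, plus strand: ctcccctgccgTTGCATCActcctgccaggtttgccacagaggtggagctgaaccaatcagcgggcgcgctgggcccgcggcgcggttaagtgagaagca

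The composite element was found in the windows of CEBPG and ATF3 among the 10 genes, and on the reverse strand in that of CHAC1. It stood in 3.62% of all 35116 windows, or for 4.46% of the 27305 genes with a window, and in 13 of the 32 ATF4 and CHOP target genes listed for this work that had one. TGACGTCA was present for PPP1R15A and in 1.85% of all windows, TGACTCA for DDIT3 and in 4.95%, and ACGTG for ATF4 and DDIT4 and in 21.4%. Counted by gene, these shares were 2.25%, 6.05% and 24.9% in the same order. Of the 32 target genes, 0, 3 and 10 had these motifs. A match describes the letters of the window and is not evidence of a bound site. The windows began at position -250 from the start site, so the lack of a motif does not cover sites farther upstream.

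Levels are given as scaled signal, the background-subtracted signal of a probe divided by the 75th percentile of its array, so that a value of 1 equals that percentile. Differences are on the log2 scale of these values. With 1 array per group no test was possible, the number of arrays limits the precision, and the error given is an SD between replicate spots on an array (log2 units), which leaves out any spread between cultures. Values are said to be separated where their difference was over 2 SD of this kind. Many probes met this margin. In Arp8 KO, 25.4% of the 22399 probes above background on both arrays were lower than WT by it and 28.7% higher. In RNA from a whole culture, fewer cells expressing a gene and less RNA per cell cannot be told apart.

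**Figure D1:**
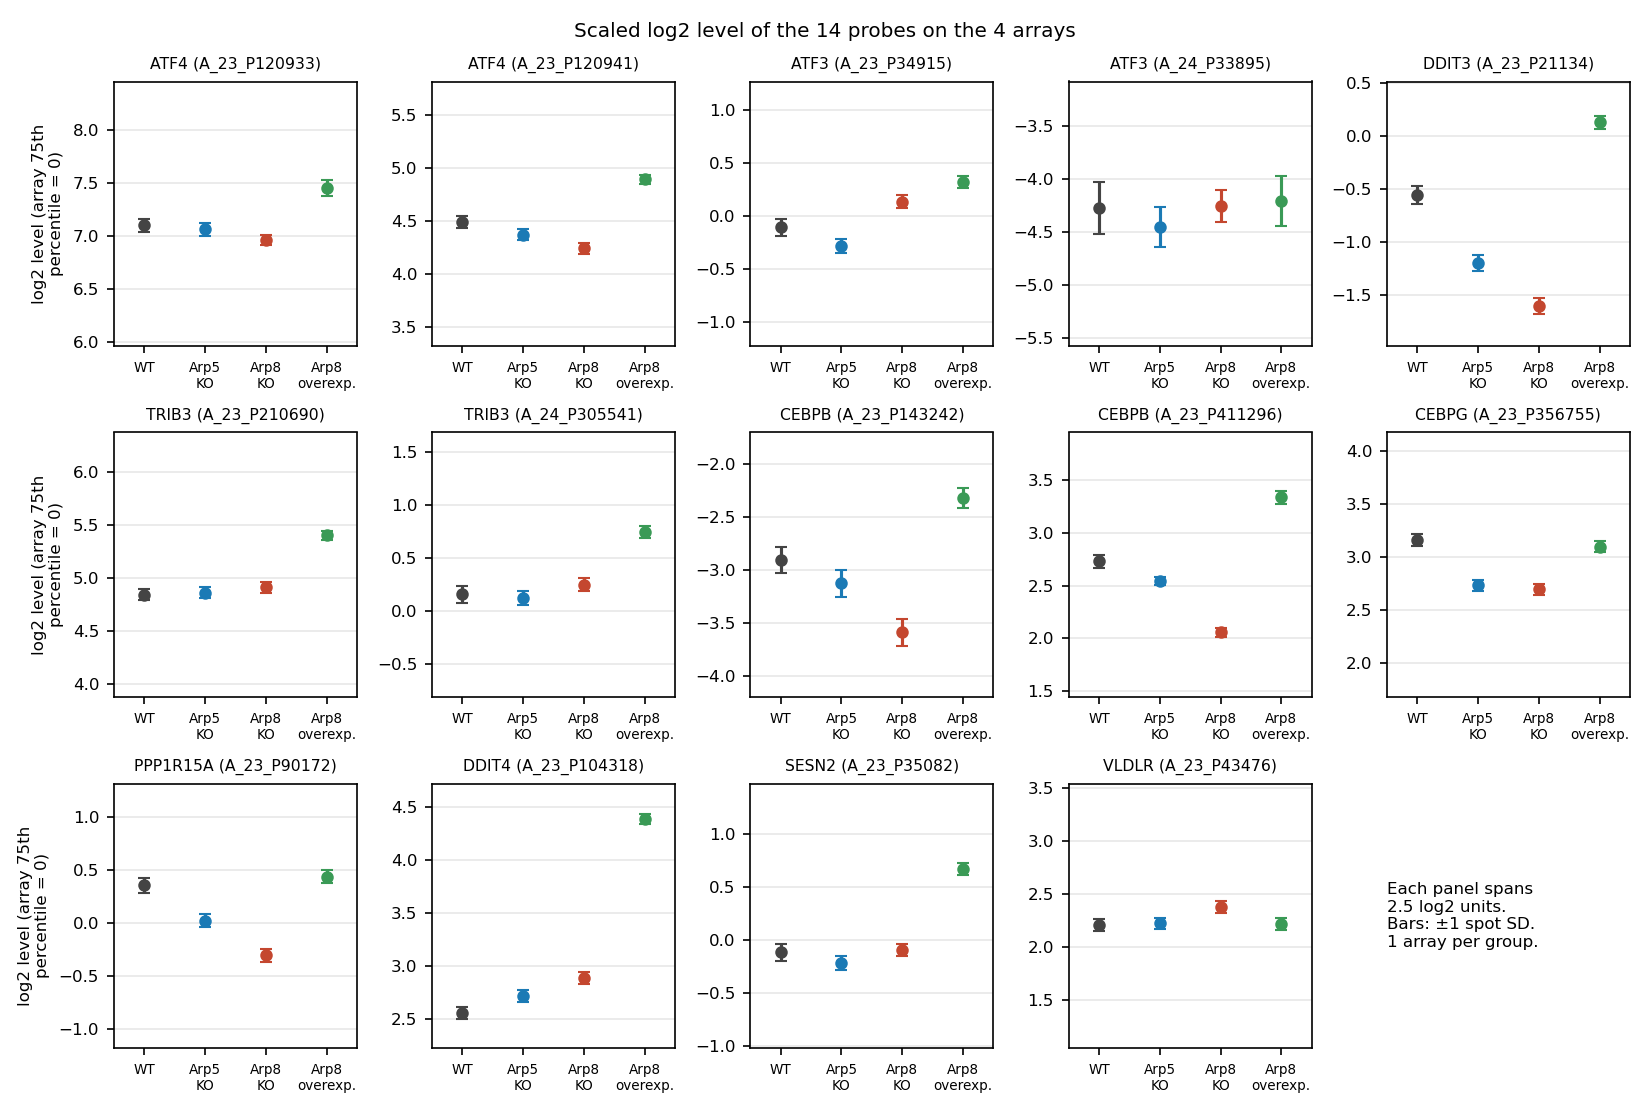
Scaled log2 level (0 is the 75th percentile of the array) of the 14 probes on the 4 arrays (1 per group), with bars of 1 spot SD and the same axis span in every panel. DDIT4, DDIT3 and CEBPB span the widest ranges (1.83, 1.73 and 1.27), and VLDLR a narrow one (0.17).

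DDIT3, which encodes the bZIP factor CHOP that pushes stressed cells towards death, was the only gene of the 10 more than 2-fold below WT in a knockout. Its scaled signal was 0.680 in WT, 1.09 on the array labelled Arp8 overexpression, 0.435 in Arp5 KO and 0.329 in Arp8 KO. In rank the 4 values were all separated from their neighbours, in the order Arp8 overexpression, WT, Arp5 KO and Arp8 KO. Against WT, DDIT3 was 1.56-fold lower in Arp5 KO (log2 difference -0.64 ± 0.11, spot SD) and 2.07-fold lower in Arp8 KO (-1.05 ± 0.11). Of all probes tested, 4.13% were as low or lower in Arp5 KO and 3.995% in Arp8 KO. On the array labelled Arp8 overexpression it was 1.61-fold higher than WT (0.68 ± 0.10), which made it 3.32-fold lower in Arp8 KO than there. DDIT3 had 1 probe printed as 1 spot, and with another background correction (normexp) its difference in Arp8 KO was -0.90, no longer past 2-fold.

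CEBPB, a C/EBP factor that dimerizes with ATF4 and CHOP, followed the same order of arrays as DDIT3 on both of its probes. The probe printed 10 times (A_23_P411296) read 6.62 in WT, 10.1 on the array labelled Arp8 overexpression, 5.83 in Arp5 KO and 4.16 in Arp8 KO. Its 10 spots ran on the log2 scale from 2.605 to 2.81 (median 2.75) in WT, from 2.47 to 2.598 (median 2.55) in Arp5 KO, from 1.95 to 2.11 (median 2.07) in Arp8 KO and from 3.23 to 3.41 (median 3.34) on the array labelled Arp8 overexpression. No spot of one array reached into the range of another. This probe was thus 1.59-fold lower than WT in Arp8 KO (-0.67 ± 0.08) and 1.52-fold higher on the array labelled Arp8 overexpression (0.60 ± 0.08), with a smaller gap in Arp5 KO (-0.18 ± 0.07). Of all probes tested, 9.28% were as low or lower in Arp8 KO and 21.9% in Arp5 KO. On the array labelled Arp8 overexpression 7.42% were as high or higher.

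The other CEBPB probe (A_23_P143242) read 0.133 in WT, 0.200 on the array labelled Arp8 overexpression, 0.114 in Arp5 KO and 0.0830 in Arp8 KO. Its differences from WT were -0.22 ± 0.17, -0.68 ± 0.17 and 0.59 ± 0.15, of which the Arp5 KO value lay within 2 SD. After normexp correction the Arp8 KO difference of this dimmer probe shrank to -0.26, while that of the brighter one stayed within -0.69 to -0.65 over 7 settings of scaling and background. These 7 include the main setting, the authors' own scaling by 1 factor per array and the values without a filter. The last of these, and the authors' scaling, could hardly change the difference.

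PPP1R15A, the stress-induced GADD34, was also lower in both knockouts. The scaled signal was 1.28 in WT, 1.35 on the array labelled Arp8 overexpression, 1.01 in Arp5 KO and 0.809 in Arp8 KO. WT and Arp8 overexpression were not separated (0.08 ± 0.09), and both stood above Arp5 KO, which in turn stood above Arp8 KO. The differences from WT were -0.33 ± 0.10 in Arp5 KO and -0.66 ± 0.10 in Arp8 KO, the latter a 1.58-fold lower level. Of all probes tested, 11.1% were as low or lower in Arp5 KO and 9.45% in Arp8 KO.

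CEBPG, a short C/EBP protein that pairs with ATF4, separated the knockouts from the other arrays without separating them from each other. It read 8.94 in WT, 8.58 on the array labelled Arp8 overexpression, 6.66 in Arp5 KO and 6.48 in Arp8 KO. Arp5 KO was lower than WT by 1.34-fold (-0.43 ± 0.08) and Arp8 KO by 1.38-fold (-0.46 ± 0.08), whereas the array labelled Arp8 overexpression differed by -0.06 ± 0.08. Of all probes tested, 7.80% were as low or lower in Arp5 KO and 15.5% in Arp8 KO.

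ATF4 itself varied little between WT and the knockouts. Its probe A_23_P120933 read 137.6 in WT, 175.4 on the array labelled Arp8 overexpression, 134.1 in Arp5 KO and 125.4 in Arp8 KO. The second probe (A_23_P120941) read 22.5, 29.7, 20.7 and 18.9 in the same order. On both probes the array labelled Arp8 overexpression was separated from WT (0.35 ± 0.10 and 0.40 ± 0.07), while neither WT and Arp5 KO nor Arp5 KO and Arp8 KO were separated. On the array labelled Arp8 overexpression, 16.3% and 13.6% of all probes tested were as high as these probes or higher. WT and Arp8 KO, which are not neighbours, differed by -0.13 ± 0.08 on one probe and by -0.25 ± 0.08 on the other, the second of these over 2 SD. In Arp8 KO 26.2% of all probes tested were as low as this second one or lower. The mRNA level does not show how much ATF4 protein was made, since its control is mainly at translation.

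ATF3, a stress-induced repressor of the same family, read 0.931 in WT, 1.25 on the array labelled Arp8 overexpression, 0.824 in Arp5 KO and 1.10 in Arp8 KO (probe A_23_P34915). Arp8 KO stood above WT by 0.24 ± 0.10, unlike DDIT3, CEBPB and PPP1R15A, which were lower there. Of all probes tested in Arp8 KO, 28.6% were as high as this ATF3 probe or higher. After normexp correction its difference was 0.15, within 2 SD. The array labelled Arp8 overexpression was higher than WT by 0.43 ± 0.10, where 12.7% of probes tested were as high or higher. A second, dim ATF3 probe (A_24_P33895), between 0.0456 and 0.0541, separated no arrays, with a difference of 0.02 ± 0.29 in Arp8 KO.

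DDIT4, or REDD1, an inhibitor of mTORC1 signalling that is known to be induced by ATF4 and by low oxygen, had the widest range of the 10 genes. Its scaled signal was 5.88 in WT, 20.9 on the array labelled Arp8 overexpression, 6.57 in Arp5 KO and 7.39 in Arp8 KO. DDIT4 was 3.56-fold higher on the array labelled Arp8 overexpression than in WT (1.83 ± 0.07), where 0.906% of the probes tested were as high or higher. The knockouts lay slightly above WT, by 0.16 ± 0.08 in Arp5 KO and 0.33 ± 0.08 in Arp8 KO, so that DDIT4 ran opposite to DDIT3 in the knockouts and alongside it on the array labelled Arp8 overexpression. In the knockouts many probes were as high or higher, 24.5% of those tested in Arp5 KO and 21.7% in Arp8 KO.

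SESN2, a stress-induced sestrin that also restrains mTORC1, read 0.920 in WT, 1.59 on the array labelled Arp8 overexpression, 0.858 in Arp5 KO and 0.933 in Arp8 KO. Only the array labelled Arp8 overexpression was separated, 1.73-fold above WT (0.79 ± 0.10), and 4.67% of tested probes were as high or higher.

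TRIB3, a pseudokinase that ATF4 and CHOP induce and that restrains both, gave the same picture on its probes. A_23_P210690 read 28.7 in WT, 42.2 on the array labelled Arp8 overexpression, 29.0 in Arp5 KO and 30.0357 in Arp8 KO. The dimmer A_24_P305541 read 1.11, 1.68, 1.09 and 1.19 in the same order. WT and the knockouts were not separated on either probe (differences from -0.03 to 0.09), and the array labelled Arp8 overexpression was higher than WT by 0.56 ± 0.07 and 0.59 ± 0.10. On that array 8.45% and 7.85% of all probes tested were as high or higher.

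VLDLR, a lipoprotein receptor known as an ATF4 target under endoplasmic reticulum stress, was nearly level, at 4.63 in WT, 4.66 on the array labelled Arp8 overexpression, 4.68 in Arp5 KO and 5.22 in Arp8 KO. Its only separated array was Arp8 KO, which was 0.17 ± 0.08 above WT, where 34.6% of probes tested were as high or higher.

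**Figure D2:**
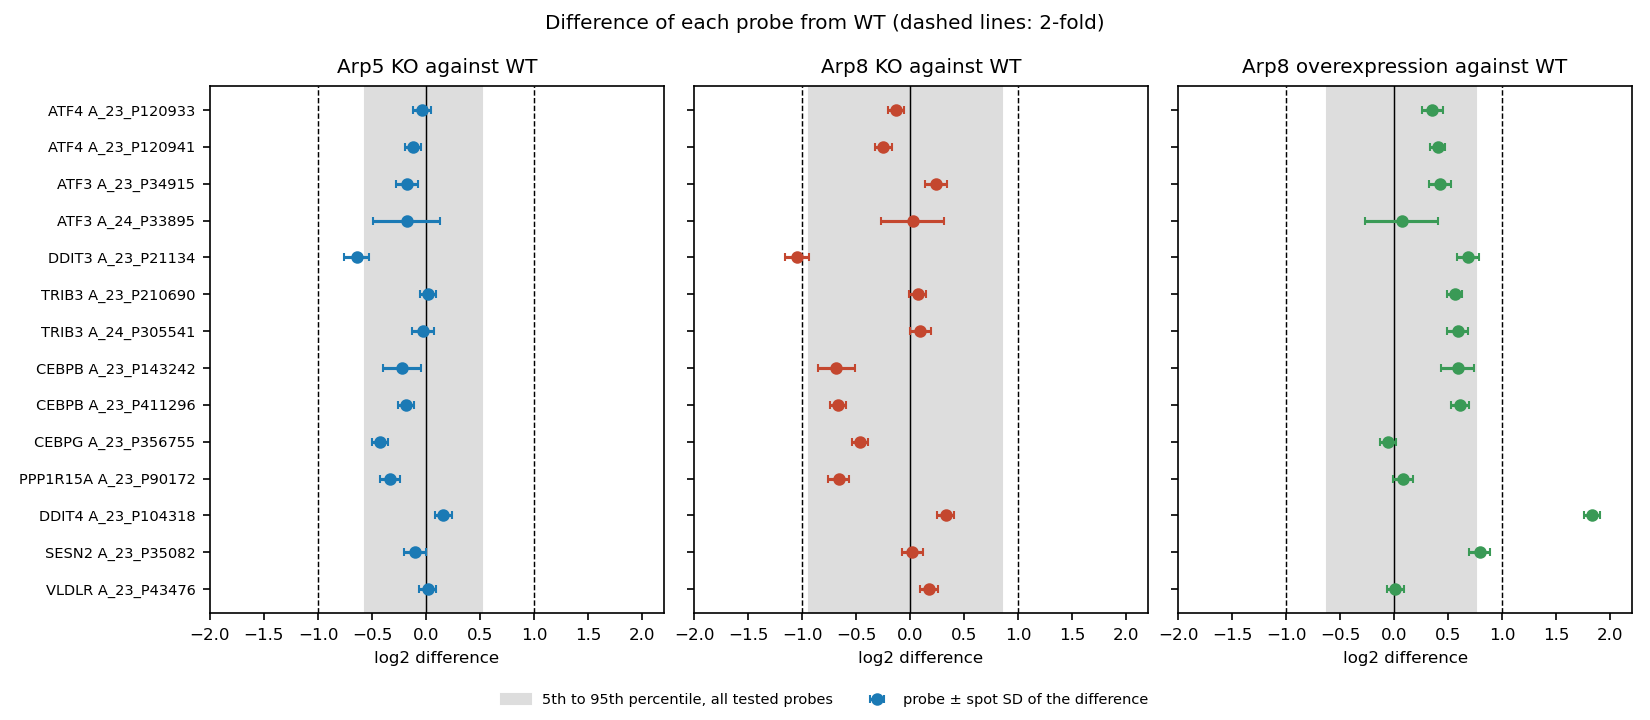
Log2 difference of each of the 14 probes from WT for Arp5 KO, Arp8 KO and Arp8 overexpression, with bars of 1 spot SD of the difference, dashed lines at 2-fold and a grey band from the 5th to the 95th percentile of all probes tested. DDIT3 lies left of the band in both knockouts (-0.64 and -1.05), and DDIT4 (1.83) and SESN2 (0.79) lie right of it for Arp8 overexpression.

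In Arp5 KO, none of the 14 probes was past 2-fold from WT, beside 1.69% of the 24285 probes tested that were higher and 2.01% that were lower. Past 1.5-fold there was 1 lower member probe, DDIT3, against 4.69% of all probes, and no higher one, against 4.15%. The median difference of the 14 was -0.15 (0.00 over all probes), with 11 of them below 0. Of the 5 that exceeded 2 SD, DDIT3, CEBPB (1 probe), CEBPG and PPP1R15A were lower and DDIT4 was higher. By the same margin, 14.8% of the 22554 probes above background on both arrays were lower and 15.8% higher.

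In Arp8 KO, 1 member probe was lower by more than 2-fold (DDIT3) and none was higher. The shares among the 24578 probes tested were 4.35% lower and 3.37% higher. Past 1.5-fold, 4 member probes of 3 genes were lower (DDIT3, CEBPB and PPP1R15A), beside 11.2% of all probes, and none was higher, beside 10.0%. The median was -0.06 (0.03 over all probes), with 7 probes on either side of 0, so that the 10 genes did not move one way together in these cells. By over 2 SD, 6 were lower and 3 higher, beside 25.4% and 28.7% of the 22399 probes above background on both arrays. Between the knockouts, Arp8 KO was separated below Arp5 KO for DDIT3 (-0.41), CEBPB (-0.46 and -0.49) and PPP1R15A (-0.33), and above it for ATF3 (0.42 on its brighter probe), DDIT4 (0.17) and VLDLR (0.16). Of all probes tested in this contrast, 10.3% to 17.3% were as low as these lower ones or lower. For the higher ones, 12.1% to 32.7% were as high or higher. The share of all probes over 2 SD was not counted for this contrast. Genotype and heme treatment cannot be told apart in this contrast either, since the source name gave no heme for Arp5 KO alone.

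On the array labelled Arp8 overexpression, 13 of the 14 probes were above WT, with a median difference of 0.49 (0.00 over all probes), and 10 were higher by over 2 SD and none lower. Of the 22152 probes above background on both arrays, 23.8% were higher and 22.9% lower by that margin. DDIT4 alone was past 2-fold, beside 2.96% of the 24177 probes tested, and no member probe was lower by as much, beside 2.15%. Past 1.5-fold, 6 probes of 5 genes were higher (DDIT3, 1 of 2 TRIB3 probes, CEBPB, DDIT4 and SESN2), beside 7.93% of all probes, and none was lower, beside 5.67%. CEBPG, PPP1R15A, VLDLR and the dim ATF3 probe were within 2 SD of WT.

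Arp8 KO was also set against the array labelled Arp8 overexpression, a comparison in which genotype and the heme treatment cannot be told apart either. Here 4 probes of 3 genes were lower in Arp8 KO by over 2-fold (DDIT3, both CEBPB probes and DDIT4), beside 3.78% of the 24204 probes tested, and 7 probes of 6 genes by over 1.5-fold, beside 9.44%. No member was higher by either margin, beside 1.64% and 6.59%. The CEBPB difference was -1.27 on both probes, and that of DDIT4 was 2.83-fold. All the comparisons with WT rest on 1 WT array, so a deviation of that array enters each of them.

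The genes above and below the 10 regulators were taken as fixed lists. The eIF2 list held the eIF2 kinases, eIF2, eIF2B and their regulators (14 genes, 18 probes). No probe of it was past 2-fold in any comparison, and its median was -0.01 in Arp5 KO, -0.04 in Arp8 KO and -0.14 on the array labelled Arp8 overexpression. EIF2AK1, the heme-regulated kinase, differed from WT by -0.00, -0.04 and -0.04 on one probe and by 0.16, 0.32 and 0.35 on the other.

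ATF4 targets of amino acid and one-carbon synthesis (15 probes tested, 10 genes) also had none past 2-fold from WT, with medians of -0.08, -0.23 and 0.14 for Arp5 KO, Arp8 KO and Arp8 overexpression. The tRNA synthetase list (10 probes, 8 genes with the tRNA exporter XPOT) had none either, with medians of -0.09, -0.09 and -0.04. Both lists thus stayed within 2-fold of WT throughout, but few of all probes passed that margin. The shares higher and lower were 1.69% and 2.01% in Arp5 KO and 3.37% and 4.35% in Arp8 KO. On the array labelled Arp8 overexpression they were 2.96% and 2.15%. With so few probes, a count of none says little about these lists or the eIF2 list.

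Among ATF4 targets that transport amino acids (15 probes, 8 genes), 14 probes were below WT in Arp5 KO and 13 in Arp8 KO, with medians of -0.24 and -0.45. Past 2-fold, SLC7A11 was the single gene, beside 2.01% of all probes lower in Arp5 KO and 4.35% in Arp8 KO. SLC7A11 is the cystine importer xCT, which supplies glutathione synthesis and is a known target of both ATF4 and NRF2. Its probe A_32_P165477 was 10.1-fold below WT in Arp8 KO and 4.16-fold below it in Arp5 KO, and matched WT on the array labelled Arp8 overexpression (0.00). A second probe (A_32_P42684) was below WT by 4.16-fold in Arp5 KO, and by at least 11.1-fold in Arp8 KO, where it was not well above background. On the array labelled Arp8 overexpression this second probe differed from WT by -0.22. Another SLC7A11 probe was above background only in WT and gave bounds of at least 1.58-fold and 1.70-fold lower in the knockouts. Its bound on the array labelled Arp8 overexpression was at least 1.33-fold lower.

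The list of stress effectors of ATF4 and CHOP (16 genes, 15 with a probe) was mixed. In Arp5 KO, 1 of 19 probes was past 2-fold, the bZIP factor ATF5 (-1.19). In Arp8 KO, of 20 probes, both of TNFRSF10B, the death receptor DR5, were past 2-fold higher (1.17 and 1.60), and 1 of 5 probes of BCL2L11, the death factor BIM, was at least 2.30-fold lower while its other probes differed by -0.49 to 0.42. DR5 is a known target of CHOP and of p53. On the array labelled Arp8 overexpression, 4 of 20 probes were past 2-fold higher and none lower by as much, namely both probes of the secreted stanniocalcin STC2 (1.41 and 1.57), 1 of TNFRSF10B (1.02, the other 0.71) and 1 of KLHL24 (1.08, the other 0.76). The medians were 0.01, 0.10 and 0.26. Of all probes tested, 1.69% were past 2-fold higher and 2.01% lower in Arp5 KO, and 3.37% and 4.35% in Arp8 KO. On the array labelled Arp8 overexpression these shares were 2.96% and 2.15%.

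Other bZIP factors and relatives of the members were examined in the same way. Of the bZIP list (19 genes with a probe), JUN (1.30) and BATF (1.17) were more than 2-fold higher in Arp8 KO, BATF (1.39) on the array labelled Arp8 overexpression, and 1 of 3 probes of FOSL2 in Arp5 KO, at least 4.26-fold, where WT was not above background. TRIB1, a relative of TRIB3, was past 2-fold higher in Arp5 KO on 1 of 2 probes (2.12-fold) and in Arp8 KO on both (2.84-fold and at least 2.17-fold). SESN1, a sestrin and p53 target, was higher in Arp8 KO on both probes (1.86 and 1.84), where SESN2 differed by 0.02 ± 0.10. The shares of all probes past 2-fold higher were 1.69% in Arp5 KO, 3.37% in Arp8 KO and 2.96% with Arp8 overexpression.

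3 further programs were listed because they share genes or triggers with the integrated stress response. ATF6 and XBP1 targets, the chaperones and degradation factors of the endoplasmic reticulum (17 probes, 13 genes), were below WT on all 17 probes in both knockouts and on 15 with Arp8 overexpression, with medians of -0.32, -0.50 and -0.58. Past 2-fold lower were 1 of 2 probes each of HSP90B1 (-1.37) and EDEM1 (-1.10) in Arp8 KO, and of HSP90B1 (-1.20) and HSPA5 (-1.01) on the array labelled Arp8 overexpression. The shares of all probes lower by as much were 4.35% and 2.15%.

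The p53 targets (22 probes, 12 genes) were above WT in Arp8 KO on 20 probes, 14 of them (9 genes) past 2-fold, where 3.37% of all probes were. Their median was 1.31 there, against 0.15 in Arp5 KO and 0.38 with Arp8 overexpression. The highest were PHLDA3 (2.74), BBC3 (2.64, 2.30 and 0.16 on 3 probes), ZMAT3 (2.08 and 1.33) and CDKN1A (1.95 and 1.48). DDIT4 and SESN2, which p53 is also known to induce, differed from WT in Arp8 KO by 0.33 and 0.02. On the array labelled Arp8 overexpression 1 of 3 BBC3 probes was past 2-fold higher (1.17, the others 0.87 and 0.34) and 1 of 3 BAX probes past 2-fold lower (-1.08, the others -0.42 and 0.04).

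The hypoxia targets (26 probes tested, 13 genes) were above WT on all 26 probes on the array labelled Arp8 overexpression, with a median of 0.74, against -0.02 in Arp5 KO and -0.04 in Arp8 KO. Past 2-fold there were 7 probes of 5 genes, beside 2.96% of all probes that were higher by as much. The largest differences were for the glycolytic regulator PFKFB4 (3.58), the peptide hormone ADM (2.92), the growth factor VEGFA (2.68, 1.17, 1.07 and 0.31 on 4 probes) and the mitophagy receptor BNIP3 (1.84). This was the array on which DDIT4 was 3.56-fold higher, and the part of this program in the DDIT4 difference was not tested. In the knockouts 1 VEGFA probe alone was past 2-fold (-1.20 in Arp5 KO and -1.51 in Arp8 KO), beside 2.01% and 4.35% of all probes lower.

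**Figure D3:**
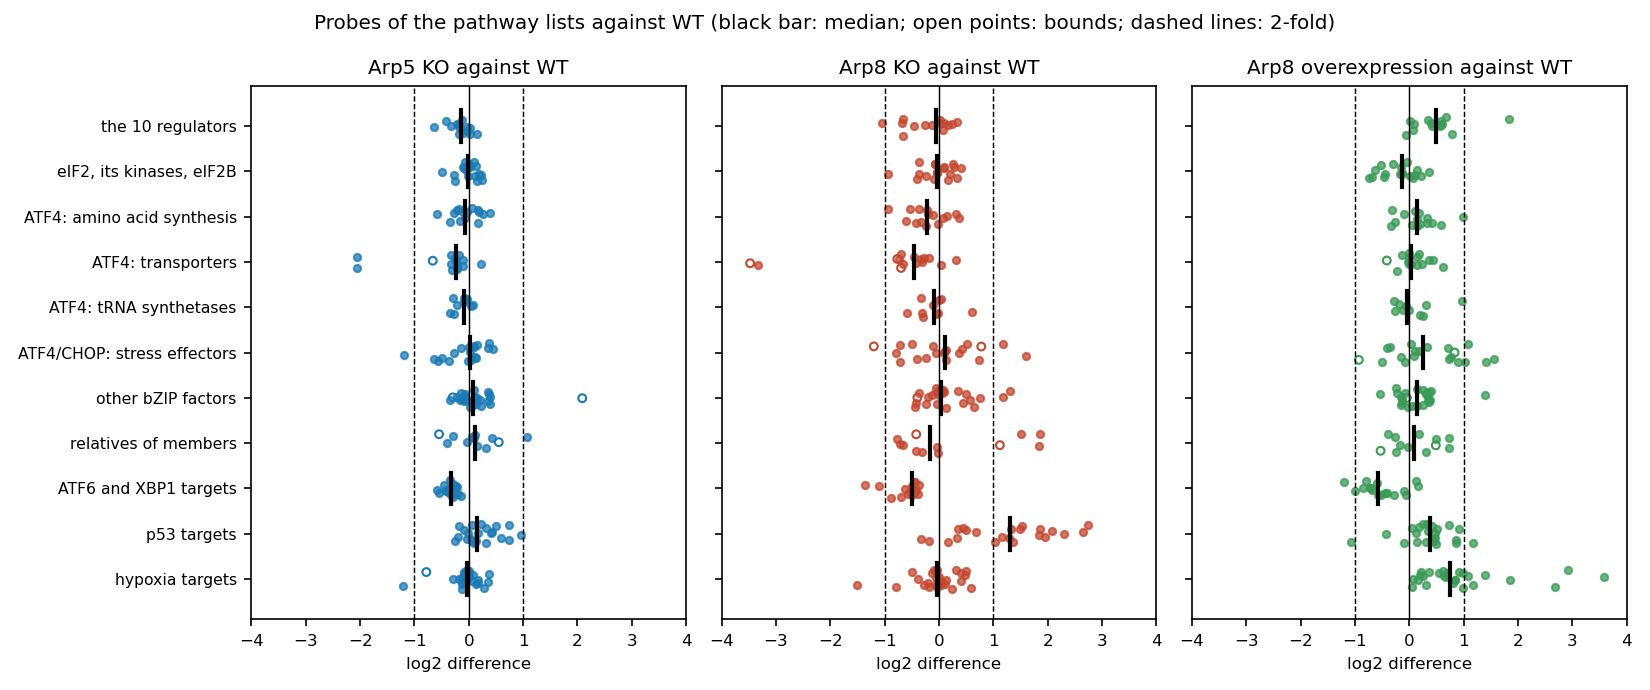
Log2 difference from WT of every tested probe (points, open where the value is a bound) of the 10 regulators and 10 other lists, with black bars at the medians and dashed lines at 2-fold. The medians that stand farthest from 0 are those of p53 targets in Arp8 KO (1.31) and hypoxia targets with Arp8 overexpression (0.74), and the 2 separate points of the transporters in both knockouts are SLC7A11.

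Genes with the pattern most like that of DDIT3 were sought among 16576 named probes well above background on all arrays, by Euclidean distance between log2 profiles centred on their means over the 4 arrays. The closest was CHAC1 (distance 0.207), a glutathione-degrading enzyme. Its promoter stretch with the composite element is printed above, but the window of DDIT3 itself held no such element. Windows of the other near genes were not examined by gene, so no link between the element and this pattern was tested. CHAC1 differed from WT by -0.56 in Arp5 KO, -0.79 in Arp8 KO and 0.90 on the array labelled Arp8 overexpression. TBC1D10C (0.282), A2M (0.293), TMT1A (0.297, its other probe 0.451) and DENND3 (0.299) came next. Of the members, the CEBPB probes ranked 24 and 32 (0.448 and 0.466) and PPP1R15A ranked 364. With 4 arrays such a ranking describes these arrays only.

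For TRIB3 (probe A_23_P210690) the closest were ANKZF1 (0.0199), GNA15 (0.0282), KLF9 (0.0287), ZNF292 (0.0429, another probe 0.287) and HAP1 (0.0463). The profile is flat over 3 arrays and about 0.5 higher on the one labelled Arp8 overexpression, a shape many probes had. The ATF4 probes stood at ranks 157 and 349, and SESN2 at 610.

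**Figure D4:**
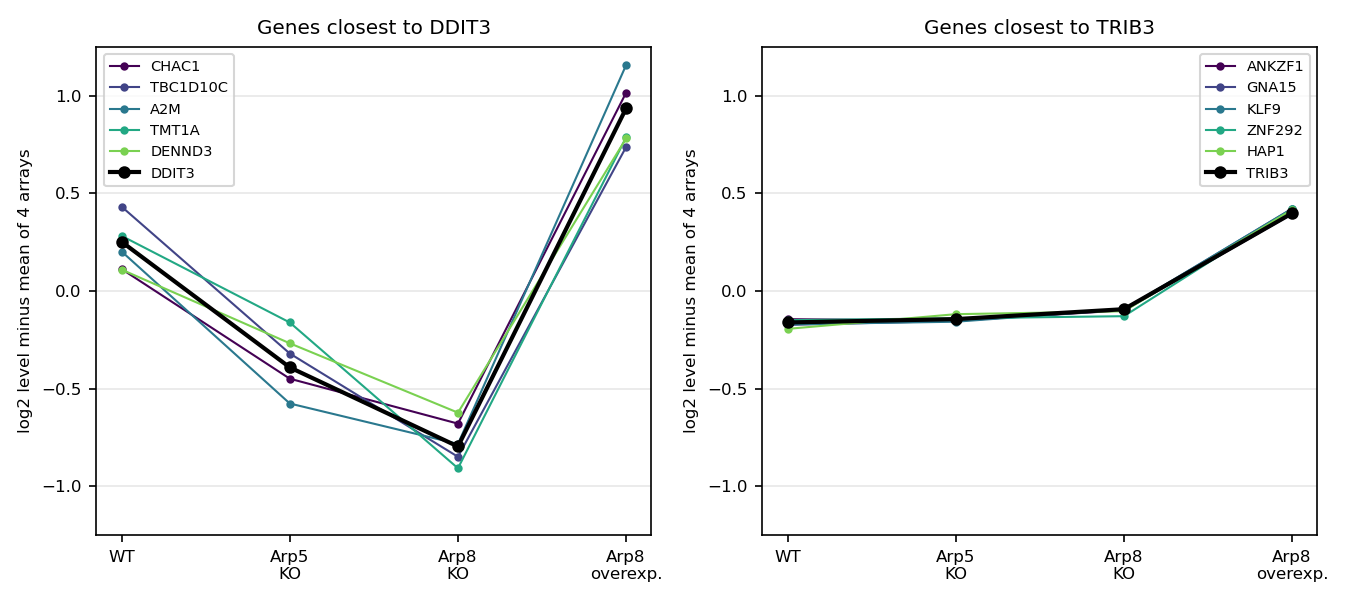
Log2 level minus its mean over the 4 arrays for DDIT3 (left) and TRIB3 (right), in black, and for the 5 genes closest to each. The DDIT3 group is highest with Arp8 overexpression and lowest in Arp8 KO, and the TRIB3 group is flat except with Arp8 overexpression.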

How the data were processed

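Cy3-labelled RNA from 4 Nalm-6 cultures was read on 4 one-colour Agilent arrays (43376 spots each, 1 slide, 1 scan). The deposited files hold intensity, which the authors extracted with Agilent Feature Extraction, version 10.10.1.1 in the headers; the processed signal is background-subtracted and not normalized between arrays. The authors' deposited series matrix equals this signal times 1 factor per array (1.99 to 2.29), is linear and not centred (medians 123, 120.4, 122 and 126 for WT, Arp5 KO, Arp8 KO and Arp8 overexpression), and served as an alternative.

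Each processed signal was divided by the 75th percentile of its array and put on the log2 scale (percentiles 735.1, 739.6, 655.7 and 647.4 in the same order). Outlier spots (69 to 76 per array) were dropped and spots of a probe averaged. No spot was saturated. A probe was well above background where at least 50% of its spots were flagged so (55.8% to 57.4% of probes per array), and was tested where this held on 1 array of the pair. A dim probe took the array's lowest value among probes above background, if higher than its own, and its difference is a bound. Symbols came from RefSeq accessions (GRCh38.p14, 66.4% of probes); the headers name hg19, so no probe coordinates are given. ADM2, CREB3L2, JUND and DDIT4L had no probe by that symbol. 1 listed B-precursor marker and 1 listed marker of other blood cells are not reported here. Spot SDs came from 264 probes printed 10 times, at like level (median 0.073 to 0.083). Groups were taken from the genotype labels, with 1 array each, so there was no test.

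Named beyond the members were ACTR5, ACTR8, HMOX1, up to 4 genes at either end of each list past 2-fold from WT, and the 5 genes nearest in pattern to DDIT3 and TRIB3; EIF2AK1, SESN2 against SESN1, and CHAC1 in the sequences were singled out after values were seen. Members and lists were chosen with earlier results of these data known. Alternatives were median scaling, quantile and cyclic loess normalization, normexp (offset 50, on the median spot signal, as the files lack the mean), the series matrix, filters on dim probes, gene means, thresholds of 1.5-fold and 4-fold, leaving out probes beside bright spots, and another reference array. Only the calculation of differences was tested on simulated data, with planted effects all past 2-fold. Python 3.11.15, numpy 2.4.6, pandas 2.3.3, R 4.3.3 and limma 3.58.1 were used.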

Additional observations from a re-analysis of the deposited data

How the results depend on the processing

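No paired analysis was possible because each group has 1 array, and for the same reason no array was left out. Of 280 member differences recomputed under alternatives, 255 moved by less than their spot SD and 25 by more. Among the 280, 42 came from the series matrix, which is the same signal times 1 factor per array. Another 42 came from dropping the filter, which all member probes had passed. Those values could hardly move and do not test robustness. The only differences from WT past 2-fold were DDIT3 in Arp8 KO (-1.05) and DDIT4 on the array labelled Arp8 overexpression (1.83). Neither changed sign, though values of that size could hardly do so. The count of member probes lower than WT went in Arp5 KO from 0 to 1 at 1.5-fold and to 2 with the array labelled Arp8 overexpression as the reference. In Arp8 KO it went from 1 to 4 at 1.5-fold, to 0 at 4-fold, to 0 after normexp correction and to 4 with that reference. The count higher on the array labelled Arp8 overexpression went from 1 to 6 at 1.5-fold and to 0 at 4-fold. The other settings left these counts within 1.5 times.

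With WT as the reference, 5 differences moved by more than the spot SD. After normexp these were DDIT3 in Arp8 KO (-0.90), the dimmer CEBPB probe in Arp8 KO (-0.26) and, on the array labelled Arp8 overexpression, ATF3 (0.30) and SESN2 (0.67), and after quantile normalization ATF4 there (0.21). The cause was not tested. With Arp8 overexpression as the reference 20 of 28 knockout differences moved, and 8 changed sign. The 3 of these that had been over 2 SD were DDIT4, which turned from 0.16 to -1.67 in Arp5 KO and from 0.33 to -1.502 in Arp8 KO, and ATF3 in Arp8 KO, which turned from 0.24 to -0.19. Spots brighter on 1 array alone lay beside the dimmer TRIB3 probe, VLDLR and 2 of the 10 spots of CEBPB. The median of all probes moved by under 0.1 with every scaling.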
